A study of Mus musculus with 12 samples.

Results

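Immediate-early genes are transcribed within minutes of a signal because the proteins that switch them on are already present in the cell. In a thymocyte, ligation of the T cell receptor (TCR) activates the Ras-ERK kinase cascade, which phosphorylates partners of serum response factor, and raises calcium, which acts through calcineurin on NFAT and MEF2 proteins. The Egr zinc-finger factors and the orphan nuclear receptors Nr4a1 and Nr4a3 are known readouts of that signal, and Egr factors take part in positive selection of CD4+CD8+ (DP) thymocytes. Fos, Fosb, Jun and Junb are basic leucine-zipper proteins that pair to form the AP-1 transcription factor, and Ier2 is a small nuclear protein induced with them.

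Here 10 genes of this class, Egr1, Egr2, Egr3, Nr4a1, Nr4a3, Fos, Fosb, Jun, Junb and Ier2, were taken by symbol from a table of 23234 features, and all 10 were found. They were measured by RNA-seq in 12 libraries described as sorted CD24hiTCRβlo DP thymocytes, the stage before selection, on a C57BL/6 background. There were 5 libraries from wild-type newborns and 3 from Bcl11bm/m newborns. The m allele carries a frameshift in the germline that removes the terminal zinc finger of the transcription factor Bcl11b, and homozygous pups do not survive the neonatal period. A further 4 libraries carry the genotype Bcl11bfl/fl:Cd4-Cre. Their Cre is driven from the Cd4 promoter and starts to delete Bcl11b only at the DP stage, so that RNA and protein made earlier may persist. The labels give no age for the Bcl11bfl/fl:Cd4-Cre mice, so age and genotype cannot be told apart against the newborn groups. Genotypes were read from the sample titles, with which the sample descriptions conflict for every library but those of Bcl11bm/m. The labels also disagree on the cells, since the source names and descriptions give pre-selection DP thymocytes and the extraction protocol gives DN NKT cells, sorted after CD4+ and CD8+ cells were depleted. The population is therefore taken from the source names, and the DP marker levels are given below. Nothing states that each library came from a separate animal, so the p-values measure the spread between these libraries.

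Levels are FPKM, fragments scaled to transcript length and to the mapped fragments of the library, and tests were run on log2(FPKM + 1) with limma over the 10780 features that averaged 1 FPKM or more. A call means a Benjamini-Hochberg adjusted p-value under 0.05 over all of those features. Of the 10 genes, 8 passed this filter, and Fos and Fosb fell below it.

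The libraries differed in ways that bear on these genes. Depth, estimated from the steps between low FPKM values, was 3760000 to 6430000 fragments in wild-type, 2570000 to 3960000 in Bcl11bm/m and, for Bcl11bfl/fl:Cd4-Cre, 10230000 to 42840000, so every Bcl11bfl/fl:Cd4-Cre library was deeper than all others. The targeted gene Bcl11b stood at 132 to 292 FPKM in wild-type, 430 to 482 FPKM in Bcl11bm/m and 115 to 140 FPKM in Bcl11bfl/fl:Cd4-Cre libraries. The last 2 ranges say little about the labels, since a frameshift need not lower RNA and the value pools all exons, and the Bcl11bfl/fl:Cd4-Cre range overlapped the wild-type range (adjusted p = 0.0828). DP markers summed over 12 genes reached 5693 to 7662 FPKM in wild-type, 4259 to 4785 FPKM in Bcl11bm/m and 4092 to 6119 FPKM in Bcl11bfl/fl:Cd4-Cre libraries. Over all features, 1069 were called higher and 797 lower in Bcl11bm/m than in wild-type, 501 higher and 1063 lower in Bcl11bfl/fl:Cd4-Cre than in wild-type, and 822 higher and 280 lower when Bcl11bm/m was set against Bcl11bfl/fl:Cd4-Cre. Median-ratio scaling moved the last 2 of these to 834 higher and 966 lower, and to 565 higher and 531 lower. Quantile normalization gave 1204 higher and 1262 lower in Bcl11bm/m against wild-type, and rescaling without short RNAs gave 1485 and 791. In Bcl11bfl/fl:Cd4-Cre against wild-type, rescaling without short RNAs gave 948 higher and 825 lower.

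Short promoter stretches of 4 of the 10 genes are shown for their sequence elements. They come from RefSeq promoter windows on GRCm38.p6, which reach from 250 bases before to 50 bases after the start, and 7 of the 10 genes had an entry. There was no entry for Egr1, Egr3 or Ier2. Capitals mark a CArG box, the site of serum response factor, in Egr2, the core of the cyclic AMP response element TGACG (or CGTCA on the other strand) in Egr2, Nr4a1 and Fos, and the AP-1-like octamer TGACATCA in Jun.
Egr2, chr10:67537793-67537822, plus strand: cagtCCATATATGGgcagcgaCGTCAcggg
Nr4a1, chr15:101266611-101266640, plus strand: tgCGTCAatggaaccccgcgtgCGTCAcgc
Fos, chr12:85473812-85473841, plus strand: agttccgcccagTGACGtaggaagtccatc
Jun, chr4:95052249-95052278, minus strand: aagcctcggggTGACATCAtgggctatttt

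Searched on both strands, TGACG was present in the windows of Egr2, Nr4a1, Nr4a3, Fos, Fosb and Junb, 6 of the 7 genes. It was present in 23.0% of 27025 genes and 20.8% of all 32851 windows of that length. The longer element TGACGTCA, which contains TGACG, was in 0 of the 7 windows against 2.03% of genes. The CArG box was found in Egr2 alone, against 1.81% of genes. TGACATCA was found in Jun alone, against 4.18% of genes, and TGANTCA in 0 of the 7 against 8.97%. The Egr element GCGNGGGCG was in Nr4a1 and Fosb, against 6.27% of genes. These are matches of letters in a fixed window, no binding was measured here, and their part in the levels was not tested.

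Positions are on NCBIM37 (mm9) from GENCODE vM1. Egr1 is the gene at chr18:35020861-35024638, Egr2 at chr10:66998223-67004936, Egr3 at chr14:70477252-70479964, Nr4a1 at chr15:101097277-101105223, Nr4a3 at chr4:48058025-48099319 and Fos at chr12:86814840-86818223, all on the plus strand. Fosb at chr7:19888070-19895394, Jun at chr4:94715725-94718913, Junb at chr8:87500811-87502617 and Ier2 at chr8:87185230-87186751 are on the minus strand. The longest transcripts of Jun, Junb and Ier2 have 1 exon each. Gm17507 overlaps Egr1 and BC042782 overlaps Jun on the opposite strand, and whether the counting used strand is not given in the sources used here, so reads of such pairs may not be separable.

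In wild-type DP thymocytes the 10 genes spanned a wide range of levels, which FPKM allows to be compared per length. Egr1 was the most abundant at 52.1 ± 13.4 FPKM (SD, n = 5). Junb at 24.5 ± 8.71, Ier2 at 20.4 ± 5.43 and Nr4a1 at 20.1 ± 4.34 FPKM followed and did not differ beyond their spread. Egr2 was at 6.63 ± 1.95 FPKM. Egr3 at 2.59 ± 0.907, Jun at 2.18 ± 0.834 and Nr4a3 at 1.78 ± 0.570 FPKM again overlapped. Fos at 1.23 ± 0.574 and Fosb at 0.400 ± 0.143 FPKM were the lowest. Wild-type replicate 1 held the lowest wild-type value of 5 of the 10 genes.

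**Figure D1:**
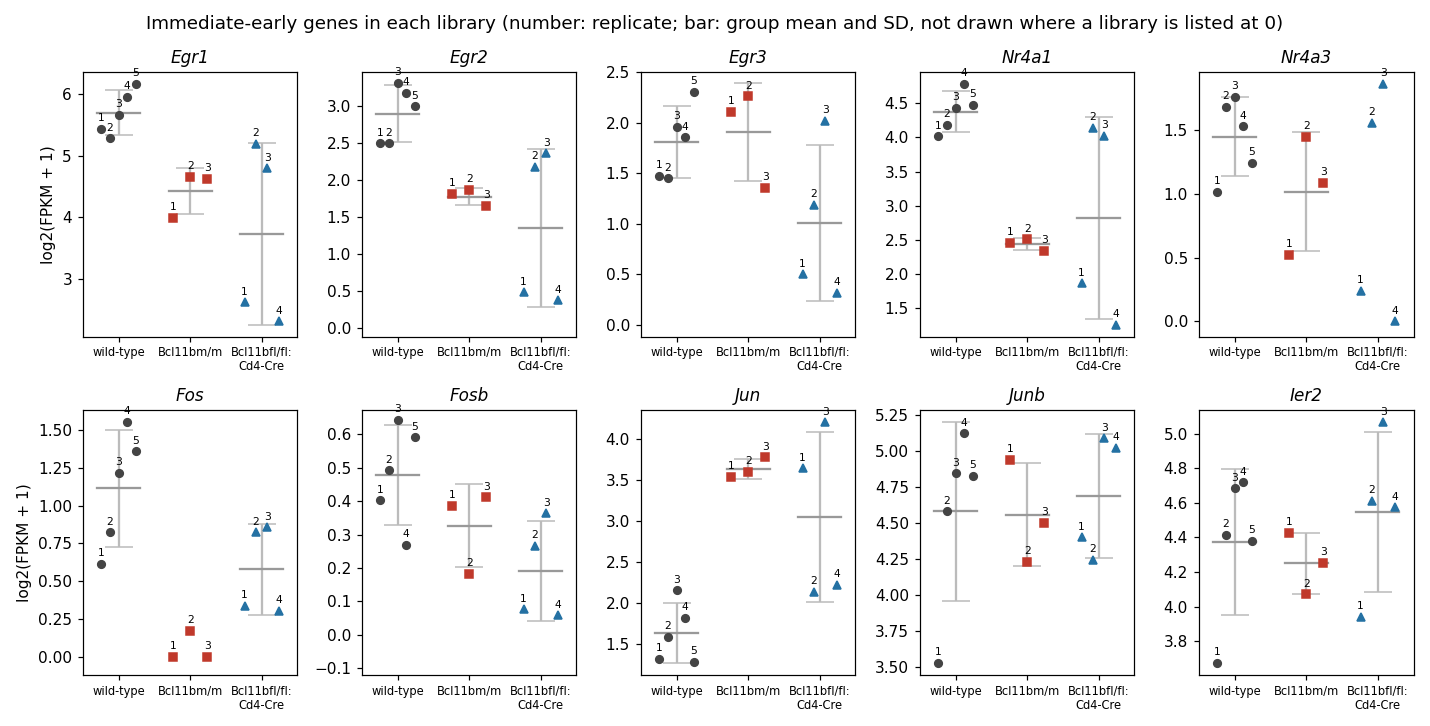
Level of each of the 10 genes in each library, as log2(FPKM + 1), with points numbered by replicate for 5 wild-type, 3 Bcl11bm/m and 4 Bcl11bfl/fl:Cd4-Cre libraries and bars for the group mean and SD (left out where a library is listed at 0). Vertical axes differ between genes. Nr4a1 lies low in all 3 Bcl11bm/m libraries, whereas Bcl11bfl/fl:Cd4-Cre replicates 1 and 4 lie far below replicates 2 and 3 for Egr1, Egr2, Egr3, Nr4a1 and Nr4a3.

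The first comparison asked how the genes stood in newborn DP thymocytes with the truncated protein. Nr4a1, Egr1 and Egr2 were lower and Jun was higher in Bcl11bm/m than in wild-type libraries. Egr3, Nr4a3, Junb and Ier2 did not pass the test. In bulk libraries, fewer cells that express a gene and less RNA of it per cell cannot be told apart.

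Nr4a1 (Nur77), whose level tracks the strength of TCR signalling, gave the largest decrease among the 8 genes that passed the filter. Wild-type replicates 1 to 5 held 15.2, 17.2, 20.6, 26.5 and 21.2 FPKM, and Bcl11bm/m replicates 1 to 3 held 4.501, 4.69 and 4.05 FPKM. The groups did not overlap, and the Bcl11bm/m libraries were nearly alike. Mean FPKM was 4.56-fold lower, and the difference on the log2(FPKM + 1) scale was -1.94 (SE 0.18, adjusted p = 0.000281). Its relative Nr4a3 was at 1.03, 2.21, 2.38, 1.89 and 1.37 FPKM in wild-type and at 0.435, 1.73 and 1.12 FPKM in Bcl11bm/m libraries. These ranges overlapped, and the difference of -0.43 (SE 0.24) was not called (adjusted p = 0.282).

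Egr1, the most abundant factor of its family here, was at 42.0, 37.8, 49.4, 60.8 and 70.3 FPKM in wild-type and at 14.9, 24.1 and 23.6 FPKM in Bcl11bm/m libraries. All 3 values lay below every wild-type value. Mean FPKM was 2.49-fold lower, with a log2 difference of -1.27 (SE 0.24, adjusted p = 0.00852). Egr2, which is needed with Egr3 for later thymocyte selection and NKT cell development, was at 4.63, 4.62, 8.89, 8.04 and 6.96 FPKM in wild-type and at 2.51, 2.63 and 2.14 FPKM in Bcl11bm/m libraries. It was 2.73-fold lower on mean FPKM, again without overlap (log2 difference -1.12, SE 0.22, adjusted p = 0.0107). Egr3 stood at 1.78, 1.73, 2.89, 2.62 and 3.93 FPKM in wild-type and at 3.31, 3.80 and 1.56 FPKM in Bcl11bm/m libraries. Its ranges overlapped, with a log2 difference of 0.10 (SE 0.27, adjusted p = 0.842).

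Jun, an AP-1 partner, changed the other way. It was at 1.49, 2.003, 3.44, 2.53 and 1.43 FPKM in wild-type and at 10.6, 11.1 and 12.7 FPKM in Bcl11bm/m libraries. Every Bcl11bm/m value exceeded every wild-type value. Mean FPKM was 5.25-fold higher (log2 difference 2.0, SE 0.21, adjusted p = 0.000579). Junb, a Jun relative that can oppose Jun, was at 10.5, 22.9, 27.7, 33.8 and 27.4 FPKM in wild-type and at 29.7, 17.8 and 21.6 FPKM in Bcl11bm/m libraries (log2 difference -0.02, SE 0.35, adjusted p = 0.978). The sign of that difference turned with the scaling of the libraries. Ier2 was at 11.8, 20.3, 24.7, 25.3 and 19.8 FPKM in wild-type and at 20.5, 15.8 and 18.1 FPKM in Bcl11bm/m libraries (log2 difference -0.12, SE 0.24, adjusted p = 0.774). Both pairs of ranges overlapped.

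Fos, the Jun partner that gives AP-1 its highest DNA affinity, was scarce in all libraries. It was at 0.532, 0.770, 1.33, 1.94 and 1.57 FPKM in wild-type libraries. In Bcl11bm/m it was listed at 0 in replicates 1 and 3 and was at 0.128 FPKM, an estimated 1.04 fragments, in replicate 2. All 3 Bcl11bm/m values lay below all wild-type values, although 3 fragments would correspond to 0.554, 0.371 and 0.359 FPKM in these shallow libraries, and a listed 0 can be a failed estimate. In the only fit that tested it, without the filter on low values, the log2 difference was -1.06 (SE 0.22, adjusted p = 0.0255). Fosb, which also yields a shortened splice form that dampens AP-1, was at 0.322, 0.407, 0.561, 0.205 and 0.506 FPKM in wild-type and at 0.307, 0.136 and 0.330 FPKM in Bcl11bm/m libraries (log2 difference -0.15, SE 0.10, adjusted p = 0.41 in the same fit). Those values rest on an estimated 1.95 to 10.8 fragments a library.

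Of the 8 genes that passed the filter, 3 were called lower, against 7.39% of all features tested, and 1 was called higher, against 9.92%. In 3 genes all Bcl11bm/m libraries lay below all wild-type libraries, against 10.8% of features, and in 1 gene all lay above, against 14.6%. The median log2 difference of the 8 genes was -0.28, beside -0.02 over all features. The 4 calls held whichever library was left out, with adjusted p-values of 0.00927 to 0.0333 for Egr1, 0.00767 to 0.0437 for Egr2, 0.000328 to 0.00252 for Nr4a1 and 0.000467 to 0.00457 for Jun. With all 3 groups in a single fit, which shares the wide Bcl11bfl/fl:Cd4-Cre spread, Egr1 (adjusted p = 0.142) and Egr2 (adjusted p = 0.0913) lost their calls.

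**Figure D2:**
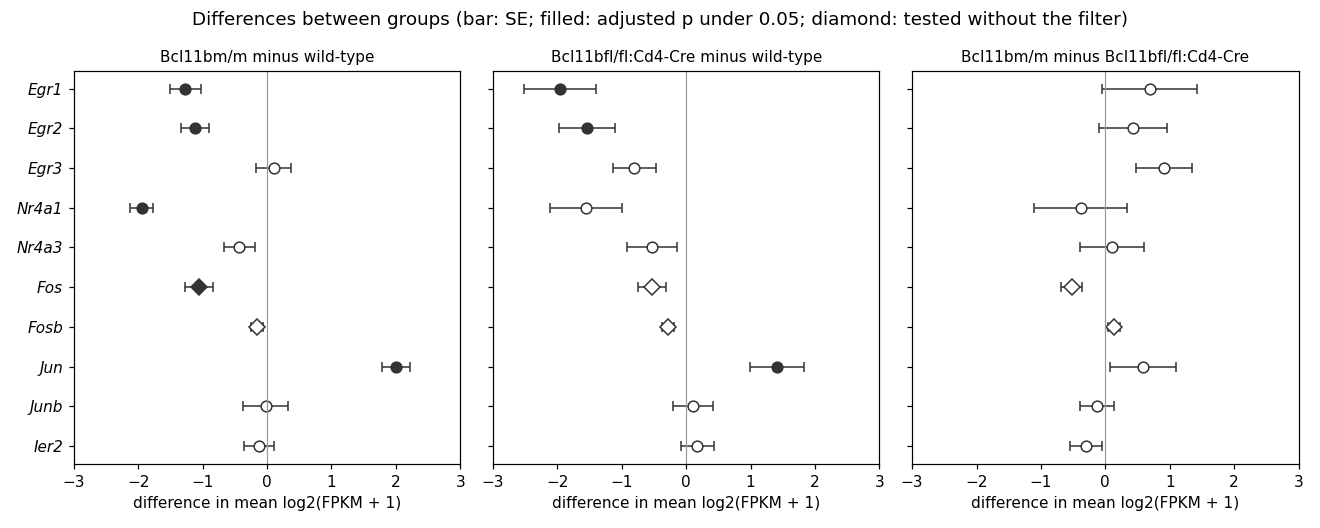
Difference in mean log2(FPKM + 1) between groups for each of the 10 genes, with bars for 1 SE, in the 3 comparisons. Filled symbols have an adjusted p under 0.05 and diamonds mark Fos and Fosb, tested without the filter. Nr4a1 at -1.94 and Jun at 2.0 lie farthest from 0 in Bcl11bm/m against wild-type. For the Egr and Nr4a genes and Jun, the SE bars are wider in the panels that include Bcl11bfl/fl:Cd4-Cre libraries.

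The second comparison put deletion at the DP stage against the same 5 wild-type libraries, which both comparisons therefore share. Egr1 and Egr2 were called lower and Jun higher in Bcl11bfl/fl:Cd4-Cre than in wild-type libraries, each with an adjusted p close to the threshold. For Egr1, Egr2, Egr3, Nr4a1, Nr4a3 and Jun, the spread between the 4 Bcl11bfl/fl:Cd4-Cre libraries was wider than in the other groups. For Junb, Fos, Fosb and Ier2 it was close to or below the wild-type spread.

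In Bcl11bfl/fl:Cd4-Cre replicates 1 to 4, Egr1 measured 5.198, 35.6, 26.8 and 4.001 FPKM. Replicate 2 came close to the lowest wild-type library at 37.8 FPKM, and replicates 1 and 4 lay far below. Mean FPKM was 2.91-fold lower (log2 difference -1.96, SE 0.56, adjusted p = 0.0439). Egr2 was at 0.393, 3.52, 4.12 and 0.293 FPKM, all below the lowest wild-type value of 4.62 FPKM, and was 3.18-fold lower on mean FPKM (log2 difference -1.55, SE 0.43, adjusted p = 0.0402). Egr3 was at 0.412, 1.27, 3.05 and 0.243 FPKM and overlapped the wild-type range (log2 difference -0.80, SE 0.34, adjusted p = 0.14).

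Nr4a1 was at 2.65, 16.6, 15.2 and 1.39 FPKM. Replicates 2 and 3 fell within the wild-type range, which began at 15.2 FPKM, and the log2 difference of -1.56 (SE 0.56) was not called (adjusted p = 0.0912). Nr4a3 was at 0.181, 1.95 and 2.64 FPKM in replicates 1 to 3 and was listed at 0 in replicate 4, where 3 fragments would correspond to 0.0418 FPKM (log2 difference -0.53, SE 0.38, adjusted p = 0.382). Fos was at 0.264, 0.770, 0.812 and 0.234 FPKM (log2 difference -0.53, SE 0.22, adjusted p = 0.182 without the filter). Fosb was at 0.0547, 0.204, 0.286 and 0.0412 FPKM (log2 difference -0.29, SE 0.09, adjusted p = 0.0997 without the filter). Both overlapped the wild-type range.

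Jun was at 11.4, 3.38, 17.4 and 3.65 FPKM, with replicates 1 and 3 high and replicates 2 and 4 near the highest wild-type value of 3.44 FPKM. Mean FPKM was 4.11-fold higher (log2 difference 1.41, SE 0.42, adjusted p = 0.0489). Junb was at 20.1, 17.9, 33.0 and 31.4 FPKM and Ier2 at 14.4, 23.4, 32.5 and 22.8 FPKM. Neither was called, with log2 differences of 0.11 (SE 0.32, adjusted p = 0.851) for Junb and 0.17 (SE 0.26, adjusted p = 0.691) for Ier2.

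Of the 8 genes, 2 were called lower, against 9.86% of features, and 1 higher, against 4.65%. In 2 genes all Bcl11bfl/fl:Cd4-Cre libraries lay below all wild-type libraries, against 10.6% of features, and in 0 genes all lay above, against 5.44%. The median log2 difference was -0.67, beside -0.09 over all features. All 3 calls were lost without the filter on low values, which raised the number of features tested to 17153, with adjusted p-values of 0.0926 for Egr1, 0.0850 for Egr2 and 0.0998 for Jun. They were also lost in turn when libraries were left out. Without wild-type replicates 2, 3, 4 or 5 or Bcl11bfl/fl:Cd4-Cre replicates 1 or 4, the adjusted p of Egr1 was 0.0694, 0.0815, 0.0858, 0.0991, 0.135 and 0.111, and that of Egr2 was 0.0607, 0.0865, 0.0805, 0.0863, 0.123 and 0.108. Without wild-type replicates 1, 2, 3, 4 or 5 or Bcl11bfl/fl:Cd4-Cre replicates 1 or 3, the adjusted p of Jun was 0.0653, 0.0909, 0.0611, 0.0764, 0.108, 0.148 and 0.116. Nr4a1 was called without Bcl11bfl/fl:Cd4-Cre replicate 2 (adjusted p = 0.0356), and Egr3 was called without Bcl11bfl/fl:Cd4-Cre replicate 3 (adjusted p = 0.0345).

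The spread within the Bcl11bfl/fl:Cd4-Cre group ran the same way through most of the genes. Replicates 1 and 4 were the lowest of all 12 libraries for 6 of the 10 genes, namely Egr1, Egr2, Egr3, Nr4a1, Nr4a3 and Fosb. They lay below replicates 2 and 3 for those 6 and for Fos and Ier2. From lowest to highest library, Nr4a1 spanned 11.9-fold, Egr2 14.0-fold and Egr1 8.90-fold in this group, against 1.75-fold, 1.92-fold and 1.86-fold in wild-type. The SD on the log2 scale was 1.48 for Nr4a1 and 1.47 for Egr1, where the median feature had 0.19 and the 95th percentile was 0.67. Jun did not follow this order, being high in replicates 1 and 3.

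**Figure D3:**
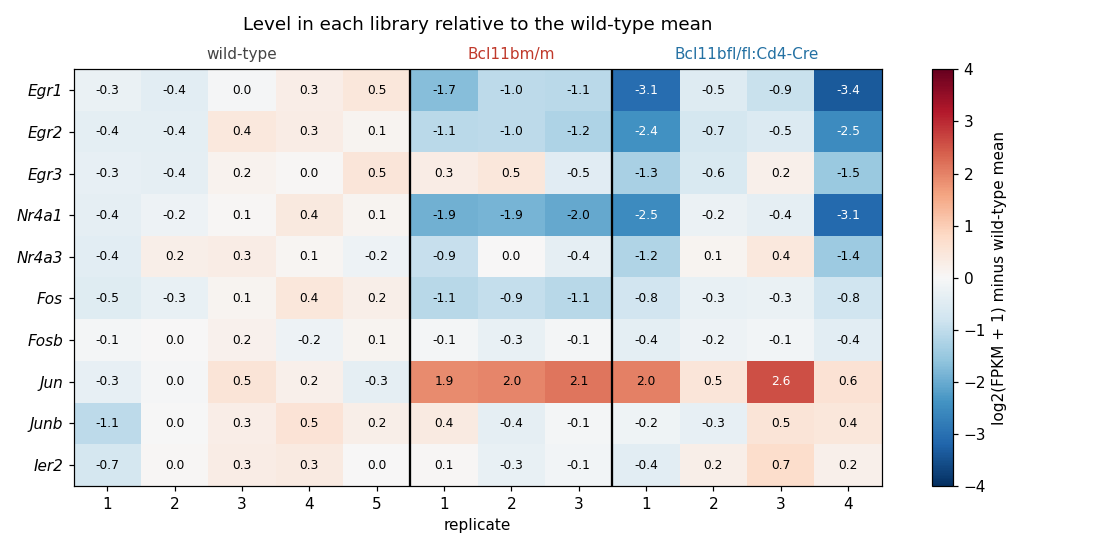
Level of each of the 10 genes in each of the 12 libraries, as log2(FPKM + 1) minus the wild-type mean, with blue for lower and red for higher. In Bcl11bfl/fl:Cd4-Cre replicates 1 and 4, Egr1 stands at -3.06 and -3.37 and Nr4a1 at -2.51 and -3.12, whereas replicates 2 and 3 are at -0.50 and -0.90 for Egr1. Jun is at 1.90 to 2.14 in the Bcl11bm/m libraries.

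The depth estimates for replicates 1 to 4 were 42840000, 10230000, 16210000 and 12550000 fragments, and the part of depth in the spread was not tested. Some other genes, chosen after their values were seen, varied with the order of the immediate-early genes. The housekeeping gene Tbp was also lower in replicates 1 and 4, within a narrow range, at 26.7, 28.0, 33.2 and 27.6 FPKM. Cd69, an early activation antigen, was at 4.61, 14.8, 12.2 and 3.48 FPKM in these 4 libraries, and Cd5, a negative regulator set by TCR signal strength, was at 23.7, 98.1, 73.3 and 35.2 FPKM. Ptcra, the pre-TCR alpha chain, ran the opposite way at 67.0, 27.0, 8.97 and 64.7 FPKM. The part of any of these in the spread was not tested.

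To find the features most like the group in pattern, the deviation of each tested feature from its group means was correlated over the 12 libraries with the mean deviation of the 8 genes. The 5 highest Pearson correlations were those of Nab2 (0.96), Ndrg1 (0.94), Stk24 (0.93), Il2rg (0.93) and Ccr4 (0.92). The 12 points share their libraries and the wide Bcl11bfl/fl:Cd4-Cre spread, so the values describe only the likeness. Nab2, a co-repressor that binds Egr proteins, was at 9.29, 14.2, 19.0, 19.6 and 14.9 FPKM in wild-type, at 10.4, 8.02 and 5.57 FPKM in Bcl11bm/m libraries. The 4 Bcl11bfl/fl:Cd4-Cre libraries held 2.21, 11.1, 20.4 and 2.15 FPKM. It was not called in either comparison with wild-type (adjusted p = 0.0600 and 0.183).

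**Figure D4:**
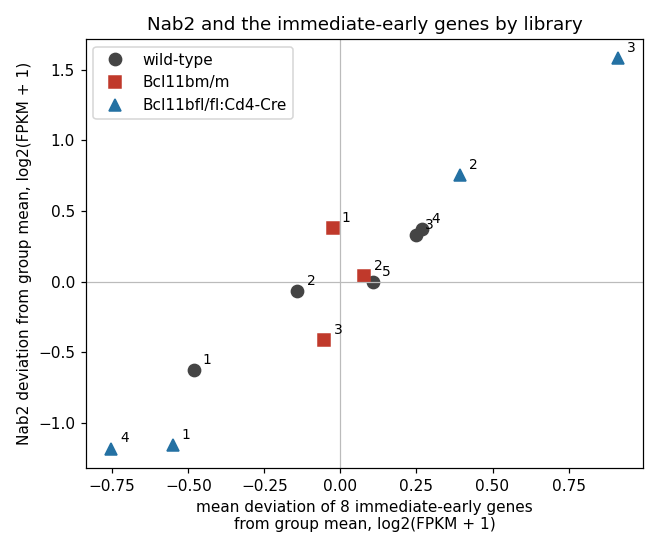
Deviation of Nab2 from its group mean (vertical) against the mean deviation of the 8 immediate-early genes (horizontal), both on the log2(FPKM + 1) scale, with 1 point for each of the 12 libraries, numbered by replicate. Bcl11bfl/fl:Cd4-Cre replicates 1 and 4 lie at the lower left, with Nab2 at -1.16 and -1.18, and replicate 3 at the upper right at 1.58.

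The third comparison set the mutants against each other. By limma, 0 of the 8 genes were called in either direction, and 0 had an unadjusted p under 0.05, the lowest being 0.0740 for Egr3. Among all features 7.63% were called higher and 2.6% lower in Bcl11bm/m, and 18.9% and 7.76% did not overlap. No gene of the 8 was without overlap. The log2 differences were 0.69 (SE 0.73) for Egr1, 0.43 (SE 0.53) for Egr2, 0.90 (SE 0.44) for Egr3, -0.39 (SE 0.72) for Nr4a1, 0.10 (SE 0.50) for Nr4a3, 0.59 (SE 0.51) for Jun, -0.13 (SE 0.26) for Junb and -0.30 (SE 0.25) for Ier2. With errors of this size, the comparison does not show that the mutants are alike. Fos could not be ordered between the mutants at this depth, since 2 of the 4 Bcl11bfl/fl:Cd4-Cre values lay below the level of 3 fragments in every Bcl11bm/m library, and its difference was not called without the filter (adjusted p = 0.12).

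The remaining members of the Egr, Nr4a and AP-1 families mostly lay below the filter. Of 13 such genes 6 passed the filter, and Egr4 was listed at 0 in all libraries. In Bcl11bm/m against wild-type, 2 of the 6 were called higher and 1 lower, against 9.92% and 7.39% of all features. Jdp2, an AP-1 repressor, rose from a mean of 1.65 to 4.39 FPKM (adjusted p = 0.00275) and Batf, an AP-1 factor of lymphocytes, from 5.04 to 11.4 FPKM (adjusted p = 0.0219). Maff, a small Maf protein, fell from 4.62 to 0.699 FPKM (adjusted p = 0.0188). Jdp2 at 4.35 FPKM (adjusted p = 0.00380) and Batf at 10.2 FPKM (adjusted p = 0.0270) were also the 2 called higher in Bcl11bfl/fl:Cd4-Cre libraries, where 0 were called lower, against 4.65% and 9.86% of all features. Jdp2 held both calls whichever library was left out. Batf held its calls in 6 of 8 and 4 of 9 of those fits.

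Among 25 further immediate-early and early response genes, of which 19 were tested, most did not pass the test. In Bcl11bm/m libraries, Myc was called higher, at 38.8 against 9.47 FPKM (adjusted p = 0.00092), and 2 were called lower, shares near the 9.92% and 7.39% over all features. These were Arc, a classical neuronal immediate-early gene, at 2.49 against 7.001 FPKM (adjusted p = 0.000596), and the kinase gene Sik1, at 1.92 against 3.76 FPKM (adjusted p = 0.0119). Arc, at 3.79 FPKM (adjusted p = 0.0108), was the only call in Bcl11bfl/fl:Cd4-Cre libraries, where 9.86% of all features were called lower. The list's median log2 difference was -0.16 and -0.04 in these comparisons. Myc was also higher than in the Bcl11bfl/fl:Cd4-Cre libraries, which held it at 10.97 FPKM (adjusted p = 0.0138).

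Few genes upstream of the immediate-early response were called, and more of those that feed back on it. Of 23 tested genes of the ERK pathway and partners of serum response factor, 1 was called higher in each comparison with wild-type, against 9.92% and 4.65% of all features. This was the Ras exchange factor gene Sos2, from 7.11 to 16.2 and 11.8 FPKM, whose calls held in 8 of 8 and 3 of 9 fits that each left out a library. Of 13 calcium and NFAT genes, Nfatc2 alone was called higher in both, against 9.92% and 4.65% of all features. Its mean went from 5.73 to 13.2 and 11.9 FPKM. In each comparison 1 gene was called lower, a share near the 7.39% and 9.86% over all features. Itpr1, the calcium release channel, was called lower in Bcl11bm/m alone, from 17.7 to 5.97 FPKM, and was also lower there than in Bcl11bfl/fl:Cd4-Cre libraries at 17.6 FPKM (adjusted p = 0.0121, lost without Bcl11bm/m replicate 2 or 3). Ppp3cb, a calcineurin subunit, was called lower in Bcl11bfl/fl:Cd4-Cre, from 33.3 to 24.5 FPKM, but not under any of the 3 other scalings.

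Of 14 tested feedback genes (dual-specificity phosphatases, Sprouty and Spred inhibitors of Ras signalling, Ras GTPase activators and the Nab co-repressors of Egr), 7 were called lower and 3 higher in Bcl11bm/m libraries, against 7.39% and 9.92% of all features. The median log2 difference was -0.77, beside -0.02 over all features. Spred2 fell from 16.4 to 7.58 FPKM (adjusted p = 0.00455), Nab1 from 7.51 to 4.004 FPKM (adjusted p = 0.00631) and the phosphatase gene Dusp1 from 8.90 to 2.92 FPKM (adjusted p = 0.00908). Spry2 rose from 0.928 to 7.23 FPKM (adjusted p = 6.61e-05) and Rasa3 from 15.9 to 45.1 FPKM (adjusted p = 0.00528). Leaving out a library gave 5 to 9 called lower. In Bcl11bfl/fl:Cd4-Cre libraries, 4 were called lower and 1 higher, against 9.86% and 4.65% of all features, with a median of -0.46. The ERK phosphatase gene Dusp6 fell from 11.9 to 3.85 FPKM (adjusted p = 0.00529), Dusp1 to 4.03 FPKM (adjusted p = 0.0142) and Dusp4 from 5.04 to 1.15 FPKM (adjusted p = 0.0318), although Dusp4 passed the filter only through the wild-type libraries, where it was high, so that its place in both counts of lower calls was favoured by the filter. Spred2 at 10.3 FPKM lost its call under each other scaling, Dusp10 was called higher from 56.3 to 78.5 FPKM (adjusted p = 0.0482) but held that call in 2 of 9 fits that each left out a library, and leaving out a library gave 1 to 6 called lower.

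Genes induced by TCR signals at positive selection went both ways. Of 15 tested, 4 were called higher and 2 lower in Bcl11bm/m libraries, against 9.92% and 7.39% of all features. Id2, an inhibitor of E proteins, rose from 3.77 to 30.6 FPKM, Cd53 from 4.78 to 44.6 FPKM and the survival gene Bcl2 from 2.39 to 5.195 FPKM. Cd5 fell from 103 to 37.3 FPKM (adjusted p = 0.0122) and Cd6 from 112 to 55.3 FPKM (adjusted p = 0.0104). In Bcl11bfl/fl:Cd4-Cre libraries Id2 at 45.0 FPKM and Cd53 at 24.3 FPKM were called higher, against 4.65% of all features, and Cd69 lower, against 9.86%, from 23.5 to 8.75 FPKM (adjusted p = 0.0356). Id2 held both calls whichever library was left out, whereas Cd53 and Cd69 held theirs in Bcl11bfl/fl:Cd4-Cre in 3 of 9 such fits. In the direct comparison Bcl2 was called higher in Bcl11bm/m (adjusted p = 0.0215), a call held in 3 of 7 fits that each left out a library and lost without any of the Bcl11bm/m replicates or without Bcl11bfl/fl:Cd4-Cre replicate 1.

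Summed markers of mature thymocytes, of NK and innate lymphoid cells and of myeloid cells did not overlap between wild-type and Bcl11bm/m libraries. Those of erythroid cells overlapped between these groups, and those of B cells and thymic stroma overlapped between all groups. The summed level of 9 mature thymocyte markers was 78.6 to 130 FPKM in wild-type and 245 to 409 FPKM in Bcl11bm/m, with Bcl11bfl/fl:Cd4-Cre libraries at 75.2 to 194 FPKM. No count of calls is given for low markers of this and the following lists, since several passed the filter only through the groups where they were high. Of 12 DP markers, 7 and 2 were called lower, against 7.39% and 9.86% of all features. NK and innate lymphoid markers summed to 18.5 to 71.1 FPKM in wild-type, 215 to 416 FPKM in Bcl11bm/m and 66.3 to 189 FPKM in Bcl11bfl/fl:Cd4-Cre libraries. Gzma, a granule protease, made up most of each of these sums, at 408.5 FPKM in Bcl11bm/m replicate 1. Prf1, the gene of perforin, had means of 2.45, 5.12 and 0.946 FPKM in wild-type, Bcl11bm/m and Bcl11bfl/fl:Cd4-Cre libraries, and Klrb1c of 0.155, 4.22 and 7.34 FPKM, with 21.8 FPKM in Bcl11bfl/fl:Cd4-Cre replicate 3. Ncr1 was at 0 in 11, Klrd1 in 6, Nkg7 in 5 and Klrb1c in 3 of the 12 libraries. Myeloid markers reached 11.01 to 14.96, 16.4 to 56.4 and 3.28 to 11.6 FPKM, B cell markers 12.9 to 21.1, 7.38 to 35.9 and 11.3 to 27.7 FPKM, erythroid markers 2.37 to 34.6, 10.6 to 29.8 and 0.850 to 5.03 FPKM, and thymic stroma markers 2.53 to 6.04, 2.81 to 8.15 and 4.65 to 13.2 FPKM. Cd14 was at 0 in 10, Foxn1 in 10, Slc4a1 in 11 and Pax5 in 7 of the 12 libraries, while other markers of these lists were present. In the same order of groups, the means were 0.711, 2.74 and 0.0971 FPKM for Mpeg1, 0.230, 1.70 and 1.85 FPKM for Fcgr3, 0.713, 4.06 and 7.46 FPKM for the stromal gene Pdgfrb, 3.04, 0.303 and 0.786 FPKM for Epcam and 0.383, 4.01 and 1.998 FPKM for Cd79a. Bcl11bm/m replicate 1 held the highest Bcl11bm/m levels of Lyz2 (37.7 FPKM) and Cd79a (10.7 FPKM), and the calls of the immediate-early genes held without it. The part of these cells in the differences was not tested.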

How the data were processed

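RNA-seq reads of 12 libraries were mapped by the authors with TopHat2, and the deposited values are FPKM computed by the authors with Cufflinks (version 2.1.1 in the submitters' processing notes, which name mm9) on the iGenome annotation, with no stated scaling of libraries to each other. The library kit is uncertain, since the methods and the labels name different kits. The table held 0 columns that matched no sample.

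Values were taken as log2(FPKM + 1), and the test took in the 10780 features that averaged 1 FPKM or more. For each pair of groups, limma 3.58.1 (R 4.3.3) was fitted to those 2 groups alone (lmFit and trended eBayes), two-sided, with Benjamini-Hochberg adjustment over all features tested and a threshold of 0.05. The test was checked on simulated data. The other steps used numpy 2.4.6, pandas 2.3.3 and matplotlib 3.10.9 under Python 3.11.15.

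The 10 genes and all gene lists were chosen with earlier results of these data known. All 10 genes are given in every library. Of each other list, up to 5 genes with the lowest adjusted p among those called are named, with others named after their values were seen, and the 5 features most like the group in pattern. Some results of the lists are not reported here.

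No read numbers were used, so depth was estimated from single-transcript genes, in which 63.2 to 72.2% of low FPKM values lay within 0.1 of a whole multiple of a common step, against 20% if spread evenly. The floor of 3 fragments covers counting error only. RefSeq promoter windows were matched by symbol.

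Each replicate was left out in turn. Other alternatives changed the pseudocount (0.1), the filter (none, or a minimum mean of 5 FPKM), the scaling (median-ratio, quantile, or without short RNAs) or the model (robust empirical Bayes, library quality weights, a replicate block, or all 3 groups together).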

Additional observations from a re-analysis of the deposited data

How the results depend on the processing

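Bcl11bm/m against wild-type gave 1866 calls over all features, and 1189 at a minimum mean of 5 FPKM, 3604 with library quality weights and 1021 (without Bcl11bm/m replicate 2) to 2349 (without wild-type replicate 1) when each library was left out, with 1225 without Bcl11bm/m replicate 1. The number of the 8 immediate-early genes called lower went from 3 to 1 with all 3 groups in a single fit, and the call of Jun held under every alternative run. Without a filter, 4 of all 10 genes were called lower, Fos being the added gene, beside 695 of 17153 features. At a minimum mean of 5 FPKM 2 were, beside 567 of 8189 features, and Egr2, at a mean of 4.06 FPKM, was not tested. Leaving out each library kept 3 called lower and 1 higher.

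Bcl11bfl/fl:Cd4-Cre against wild-type gave 1564 calls, and 3176 with library quality weights and 700 (without Bcl11bfl/fl:Cd4-Cre replicate 1) to 2678 (without wild-type replicate 1) when each library was left out. Leaving out wild-type replicates 2 or 5, or Bcl11bfl/fl:Cd4-Cre replicates 3 or 4, gave 938, 865, 778 and 773. The 2 genes called lower became 1 with a pseudocount of 0.1, 0 without a filter and 1 with robust empirical Bayes. They became 4 with library quality weights and 0 to 3 when each library was left out. At a minimum mean of 5 FPKM, where Egr2 was not tested, 1 was called lower. The 1 gene called higher became 0 without a filter and at a minimum mean of 5 FPKM, and 0 to 1 when each library was left out. Bcl11bm/m against Bcl11bfl/fl:Cd4-Cre gave 1102 calls, and 656 at a minimum mean of 5 FPKM, 2173 with library quality weights and 313 (without Bcl11bm/m replicate 3) to 1121 when each library was left out. Leaving out Bcl11bm/m replicate 2, or Bcl11bfl/fl:Cd4-Cre replicates 1, 2 or 4, gave 327 to 711.

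A replicate block cut the calls to 283, 456 and 30 in the 3 comparisons. Under the replicate block the immediate-early genes called lower were 1 (Nr4a1) in Bcl11bm/m and 0 in Bcl11bfl/fl:Cd4-Cre against wild-type, and those called higher 1 and 0. Replicate numbers came from the titles, and same-numbered libraries of wild-type and Bcl11bm/m correlated at -0.21, -0.01 and -0.01 in their deviations from the group means, those of wild-type and Bcl11bfl/fl:Cd4-Cre at 0.09, -0.09, 0.15 and 0.12, and those of the mutants at -0.07, 0.06 and 0.03. Of the 4 wild-type libraries that share a number with Bcl11bfl/fl:Cd4-Cre, 2 correlated best with their own number, and 0 of 3 did in the other pairs of groups.

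Differences that were not called turned sign as follows. In Bcl11bm/m against wild-type, Egr3 went from 0.10 to -0.0599 with quantile normalization and ran from -0.0761 to 0.38 over left-out libraries, and Junb went from -0.02 to 0.0041 with quantile normalization, 0.0749 rescaled without short RNAs and 0.24 with the replicate block, and ran from -0.29 to 0.14. In Bcl11bfl/fl:Cd4-Cre against wild-type, library quality weights gave -0.0629 for Junb and -0.0617 for Ier2, which ran from -0.16 to 0.25 and from -0.0009 to 0.38 over left-out libraries. In Bcl11bm/m against Bcl11bfl/fl:Cd4-Cre, Nr4a3 was -0.0417 with quantile normalization and -0.20 with the replicate block and ran from -0.20 to 0.42, Nr4a1 from -0.91 to 0.053 and Junb from -0.32 to 0.0328. Depth limited Fos and Fosb most, at an estimated 18.8 fragments or fewer in every wild-type and Bcl11bm/m library. The cause of these shifts was not tested.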

Other observations

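Genes of heat shock and tissue dissociation stress were also measured. Of 10 tested, 1 was called higher and 1 lower in Bcl11bm/m against wild-type, near the 9.92% and 7.39% over all features. The co-chaperone gene Bag3 rose from 2.1002 to 7.67 FPKM (adjusted p = 0.0039), and Dnajb1, a heat-shock protein 40, fell from 55.6 to 27.5 FPKM (adjusted p = 0.023). In Bcl11bfl/fl:Cd4-Cre libraries the chaperone gene Hsp90aa1 was the only call, from 107 to 55.2 FPKM (adjusted p = 0.0107), where 9.86% of all features were called lower. The calls of Bag3 and Hsp90aa1 held whichever library was left out, and that of Dnajb1 held in 4 of 8 such fits. Hspa1a, the classical inducible member, was at most 0.37 FPKM in all 12 libraries. The summed level of the list was 1082 to 1588 FPKM in wild-type, 875 to 1301 FPKM in Bcl11bm/m and 1005 to 1773 FPKM in Bcl11bfl/fl:Cd4-Cre libraries, with overlap between all 3 groups.

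Of 10 housekeeping genes, Gapdh was called lower in both mutants, from 658 to 356 FPKM in Bcl11bm/m and to 327 FPKM in Bcl11bfl/fl:Cd4-Cre libraries (adjusted p = 0.0339 and 0.0142), and Hprt and Ppia were also called lower in Bcl11bfl/fl:Cd4-Cre libraries (adjusted p = 0.017 and 0.0472). Gapdh held its calls in 2 of 8 and 8 of 9 fits that each left out a library, Hprt in 7 of 9 and Ppia in 1 of 9. Over all features 7.39% were called lower in Bcl11bm/m and 9.86% in Bcl11bfl/fl:Cd4-Cre libraries. The other housekeeping genes tested were not called in either comparison with wild-type.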
